A study of Mus musculus with 4 samples.

Results

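Trpm5, Trpm4, Trpm2 and Trpm7, the 4 genes described here, encode channels of the melastatin branch of the TRP family and were read from 4 droplet single-cell libraries of mouse pancreatic islets, in which they are 4 of 32285 annotated genes. They were taken by gene symbol, and the set was chosen by the measured level of Trpm5 in insulin cells, which was known to be far lower in 1 of the 4 libraries, the one labelled HH HFD. The levels of Trpm5 by genotype and diet are therefore given as a description. Its distribution over cells, its relation to Mafa and Slc2a2, and the other 3 genes are described beside it.

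Trpm5 and Trpm4 are opened by intracellular calcium and pass monovalent cations but hardly any calcium. In pancreatic β cells the sodium they let in depolarises the membrane, on top of the closure of KATP channels, and both have been linked to the electrical bursts that drive insulin release. Trpm5 is also the transduction channel of taste cells and tuft cells. Trpm2 is a calcium-permeable channel opened by ADP-ribose, and is prominent in phagocytes. Trpm7 joins a channel for magnesium, zinc and calcium to a kinase domain, and is found in most tissues.

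The study asked how a Pax4 allele acts on islets under a standard chow diet (SCD) and under a high-fat diet (HFD). Pax4 is a transcription factor of islet development, and HH mice were homozygous for a missense substitution knocked into the endogenous gene, the mouse counterpart of a human variant, while WT mice were wildtype littermates on a C57BL6/N background. The 4 libraries were WT SCD and HH SCD at 12 weeks of age, and WT HFD and HH HFD at 16 weeks of age after 4 weeks of HFD. All mice were male, and the islets of a few mice were pooled into each library. With 1 library per group no test between groups was possible, the effect of a group and that of its library cannot be told apart, and the HFD mice were also the older ones. The knock-in changes a coding base, so gene counts do not check the genotype labels. Intervals in brackets are 95% Poisson intervals for levels and ratios, and exact Clopper-Pearson intervals for shares of cells, unless stated otherwise. They cover counting error alone.

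In the GRCm38 annotation (GENCODE M21) all 4 genes lie on the minus strand. Trpm5 spans chr7:143069153-143094642, has up to 26 exons and is overlapped on the plus strand by Tssc4. Trpm4 spans chr7:45302632-45333780, with up to 25 exons and the pseudogene Rpl14-ps1 on the opposite strand. Trpm2 spans chr10:77907722-77970563, with up to 34 exons and the small genes Gm22394 and Gm22871 on its own strand. Trpm7 spans chr2:126791565-126876230, with up to 39 exons and the pseudogene Gm14212 opposite. Tssc4, the neighbour that overlaps Trpm5, stood at 73.3 CPM, counts of the gene per 1000000 UMIs of the summed cells, in WT SCD insulin cells, 73.3 in HH SCD, and at 89.4 in WT HFD and 83.9 in HH HFD. Its level in HH HFD did not share the low value of Trpm5 given below.

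The sequences just upstream of Trpm5, found mainly in insulin cells, and of Trpm7, found in every hormone class, are shown because they differ in base composition. RefSeq promoters on GRCm38.p6 were found for 3 of the 4 genes, and Trpm4 is named only. Each run below holds the 250 bases before the gene's start in RefSeq, 5′ to 3′ on the minus strand, at chr7:143094643-143094892 for Trpm5 and chr2:126876262-126876511 for Trpm7. The RefSeq start of Trpm7 lies outside the GENCODE span given above, and the Trpm2 window, chr10:77969873-77970122, lies inside the GENCODE span of Trpm2, so the annotations place these starts differently. Capitals mark TAAT or its reverse complement ATTA, the core letters that homeodomain proteins such as Pax4, Pdx1 and Nkx6-1 can contact.
Trpm5: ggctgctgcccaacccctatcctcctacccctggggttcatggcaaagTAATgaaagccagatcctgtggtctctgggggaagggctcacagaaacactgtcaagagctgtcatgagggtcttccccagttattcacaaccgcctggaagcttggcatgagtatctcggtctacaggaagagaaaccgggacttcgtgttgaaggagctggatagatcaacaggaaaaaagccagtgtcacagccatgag
Trpm7: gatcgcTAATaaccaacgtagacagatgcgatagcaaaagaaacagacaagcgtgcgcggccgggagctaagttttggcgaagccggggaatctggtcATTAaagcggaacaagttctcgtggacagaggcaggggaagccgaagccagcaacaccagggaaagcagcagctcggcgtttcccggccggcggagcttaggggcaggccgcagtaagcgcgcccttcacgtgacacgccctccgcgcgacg
The Trpm7 run held 26 CpG dinucleotides, and 90.4% of all 32851 promoter windows of this length held fewer. The Trpm5 run held 4, near the median of 6 for all windows, and the Trpm2 window held 10. TAAT on either strand was found at 1 place in the Trpm5 window, at 2 places in that of Trpm7 and nowhere in that of Trpm2, against 54.9% of all windows with at least 1 match. TGCTGA, a core of the element read by Maf factors such as Mafa, was absent from the windows of all 3 genes and present in 16.1% of all windows. CANNTG, the E-box letters, matched at 0 places for Trpm5, 3 for Trpm2 and 2 for Trpm7, and 66.2% of all windows held a match. These matches describe letters in a short window and carry no measurement of binding.

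The 4 matrices held 22218 barcodes and 340006331 unique molecular identifiers (UMIs, each standing for 1 captured RNA molecule), from 68011082 UMIs in WT HFD to 104810105 in HH HFD. Pairs of libraries shared 6 to 11 barcodes. After filters on depth, gene number and mitochondrial share and the removal of 348 predicted doublets, 12404 cells remained. The filters passed 38.3% of the barcodes of WT HFD, the library that every HFD ratio of HH to WT is set against, and 61.6% to 67.8% in the others. Cells were classed by the hormone that held at least 80% of their hormone UMIs. There were 2009 insulin cells in WT SCD and 1980 in HH SCD, against 1133 in WT HFD and 2839 in HH HFD, with 266 to 435 glucagon, 123 to 224 somatostatin and 61 to 172 pancreatic polypeptide cells per library. The 9 insulin cell markers were all above 10 CPM in the insulin cells of each library. HH HFD insulin cells had the lowest median depth, 24190 UMIs against 26207 to 29867 in the others, and the lowest median mitochondrial share, 3.98% against 4.89% to 5.12%. Markers of other cell types were low in insulin cells. The 6 endothelial markers summed to between 4.09 and 6.39 CPM and the 6 stromal markers to between 0.171 and 3.18 CPM, both with the highest sum in HH HFD. The 5 acinar markers summed to between 0.303 and 1.41 CPM and the 4 Schwann cell markers to between 8.59 and 10.5 CPM. The 5 ductal markers summed to between 80.6 and 108 CPM, highest in HH HFD, and the 6 lymphocyte markers to between 3.39 and 15.7 CPM, lowest in HH HFD. The 6 macrophage markers summed to between 39.3 and 53.2 CPM, also lowest in HH HFD. Markers of the other hormone classes were highest in HH HFD, with sums of 580 CPM over 5 glucagon markers against 335 to 560 in the other libraries, 166 CPM over 5 somatostatin markers against 78.3 to 88.4, and 854 CPM over 3 pancreatic polypeptide markers against 356 to 558. The part of these markers in the results was not tested.

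Trpm5 was found in insulin cells and was close to background elsewhere. Its level in insulin cells was 92.2 CPM (89.6 to 94.8) in WT SCD and 92.0 CPM (89.4 to 94.6) in HH SCD, with 114 CPM (111 to 118) in WT HFD and 45.2 CPM (43.7 to 46.8) in HH HFD, from 4999, 4853, 3885 and 3199 UMIs. In glucagon cells it was between 0.853 CPM in WT SCD and 2.12 CPM in HH SCD, from 4 to 10 UMIs per library. Somatostatin cells held 2 or 3 Trpm5 UMIs per library and pancreatic polypeptide cells 1 to 3. Traces of this size are in the range that free insulin cell RNA in the droplets would bring. Insulin UMIs made up 0.837% to 1.23% of the UMIs of glucagon cells, and an equal dose of whole insulin cell RNA would have brought 9.72, 8.33, 7.47 and 3.77 Trpm5 UMIs into the glucagon cells of the 4 libraries, where 4, 10, 4 and 5 were counted. Trpm5 outside insulin cells was therefore read as background. The difference between HH HFD and the other libraries was not seen in those traces, which are too few to show one.

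Trpm4 was shared among the endocrine classes. It stood between 11.4 and 15.3 CPM in insulin cells, between 6.28 and 11.1 CPM in glucagon cells, between 16.8 and 26.8 CPM in somatostatin cells, and between 7.24 and 9.14 CPM in pancreatic polypeptide cells. In each of the 4 libraries the somatostatin level was the highest of the 4 hormone classes, and the intervals of somatostatin and insulin cells did not overlap in the SCD and WT HFD libraries. CPM counts all UMIs, hormone RNA included, and the share of that RNA differs between classes. Insulin markers summed to 583929 to 611227 CPM in insulin cells, and somatostatin markers to 194500 to 207371 CPM in somatostatin cells. The part of this share in the class differences was not tested. Trpm7 was present in all hormone classes, with the lowest of these levels in insulin cells of each library, 13.1 to 16.3 CPM. It stood between 16.9 and 34.1 CPM in glucagon cells, between 29.7 and 38.3 CPM in somatostatin cells, and between 46.3 and 58.4 CPM in endothelial-like cells. Pancreatic polypeptide cells held 14.9 to 23.9 CPM, with intervals that overlapped those of insulin cells in each library, as did that of glucagon cells in WT HFD. Glucagon markers summed to 302345 to 356281 CPM in glucagon cells, and the same limit of the CPM scale holds for Trpm7. Trpm2 was near the detection limit in hormone cells, at 0.891 to 1.5 CPM in insulin cells and with at most 2 UMIs per library in each of the glucagon, somatostatin and pancreatic polypeptide classes. Its highest level was in macrophage-like cells, 46.9 CPM (29.8 to 70.4) in WT HFD from 49 cells and 49.1 CPM (22.4 to 93.1) in HH HFD from 22 cells. The 15 macrophage-like cells of WT SCD gave 29.8 CPM and the 8 of HH SCD gave 13.7 CPM, from 4 UMIs and 1 UMI. No Trpm2 UMI was counted in endothelial-like, stromal-like, ductal-like or lymphocyte-like cells, and in endothelial-like cells of WT HFD, for example, a count of 0 allows up to 2.57 CPM, taken as 3 counts of the total.

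**Figure D1:**
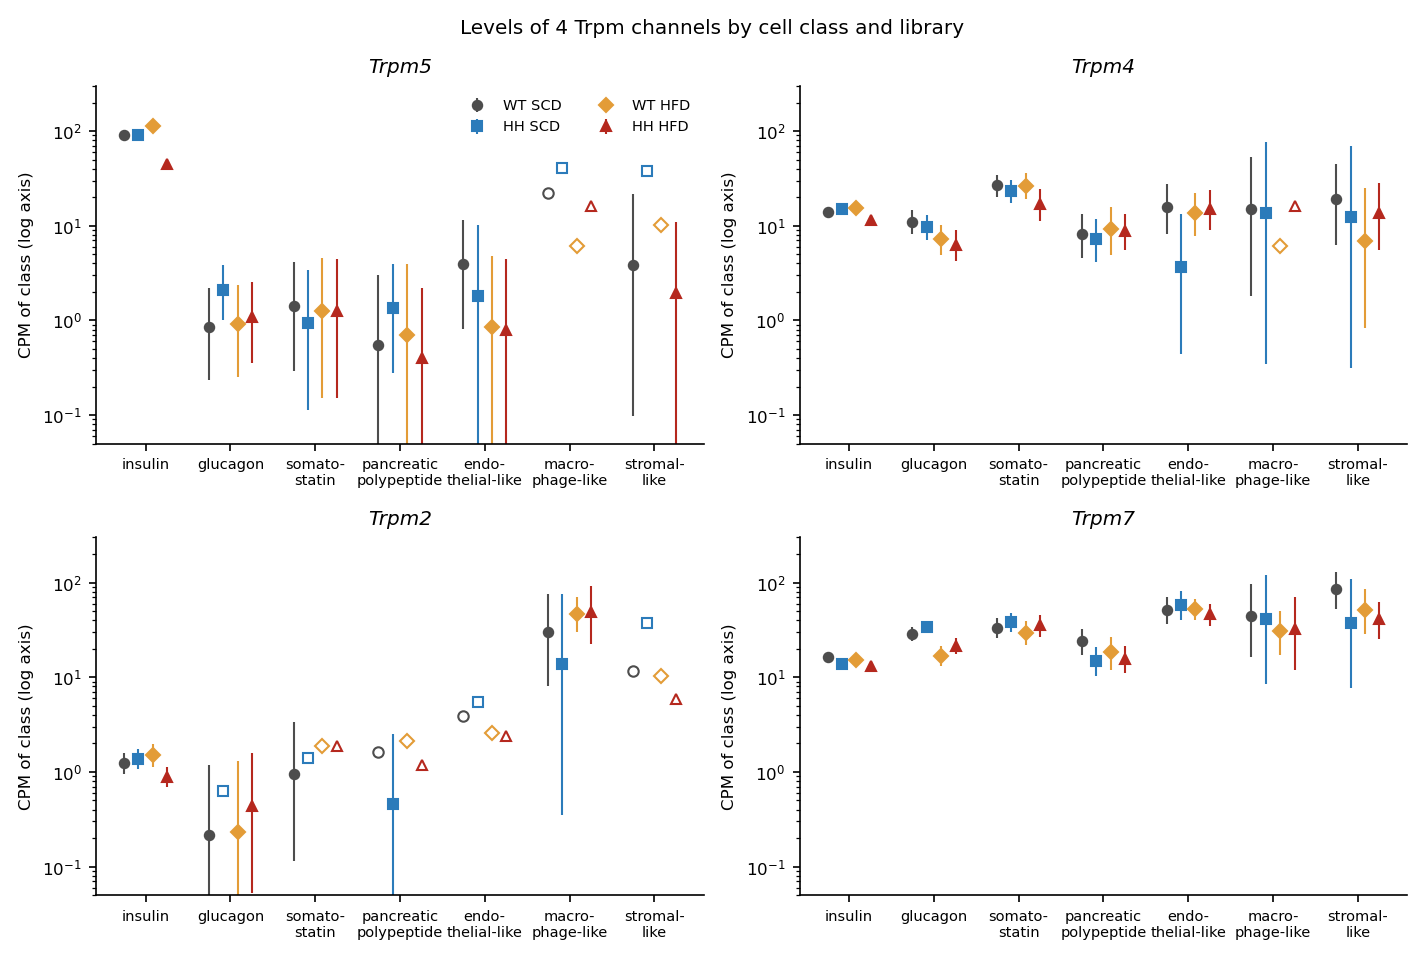
Level of each gene (CPM of the summed UMIs of a class, log axis) in 7 cell classes and the 4 libraries, with bars for 95% Poisson intervals. Open symbols mark classes with 0 UMIs and are drawn at the level of 3 counts. Trpm5 stands between 45.2 and 114 CPM in insulin cells and near or under 4 CPM wherever UMIs were counted in the other classes, Trpm2 is highest in macrophage-like cells, and Trpm4 and Trpm7 are spread over the classes.

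In insulin cells Trpm5 was alike in both genotypes on SCD and differed widely on HFD, where 6 of the 5881 genes tested stood further below WT. The log2 ratio of HH to WT was -0.00 on SCD (-0.06 to 0.05) and -1.34 on HFD (-1.41 to -1.27). Along the diet, the log2 ratio of HFD to SCD was 0.31 in WT (0.25 to 0.37) and -1.02 in HH (-1.09 to -0.96), so the WT HFD library held the highest level of the 4 and HH HFD the lowest. The difference between the HFD and the SCD ratio was -1.34 on the log2 scale (-1.42 to -1.25). Since these values chose Trpm5, they are given without further reading. On SCD 0.198% of the 6061 genes at a mean of 10 CPM or more were at least 1.5-fold lower in HH with intervals that did not overlap, and 0.033% were higher by the same rule. On HFD 1.65% of genes were lower and 0.765% were higher. Of the 4 channels Trpm5 met the rule on HFD, Trpm4 and Trpm7 did not on either diet, and Trpm2 was under the minimum of 10 CPM and was not counted.

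The other 3 channels and the β cell genes Mafa and Slc2a2 give the scale of that value. Mafa is a transcription factor of mature β cells and Slc2a2 encodes the glucose transporter GLUT2. Mafa stood at 396 CPM in WT SCD and 358 in HH SCD, compared with 312 in WT HFD and 195 in HH HFD, and its log2 ratio of HH to WT was -0.14 on SCD and -0.68 on HFD. Slc2a2 stood at 297, 269, 303 and 154 CPM in the same order, with log2 ratios of -0.14 and -0.98. Both were slightly lower in HH on SCD, where Trpm5 was level. The log2 ratio of HFD to SCD in WT was -0.34 for Mafa (-0.38 to -0.31) and 0.03 for Slc2a2 (-0.01 to 0.06), beside 0.31 for Trpm5. All log2 ratios of HH to WT are set beside a median over tested genes of -0.08 on SCD and -0.13 on HFD. Median-of-ratios scaling moved every HFD ratio up by 0.10 and every SCD ratio up by 0.07.

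**Figure D2:**
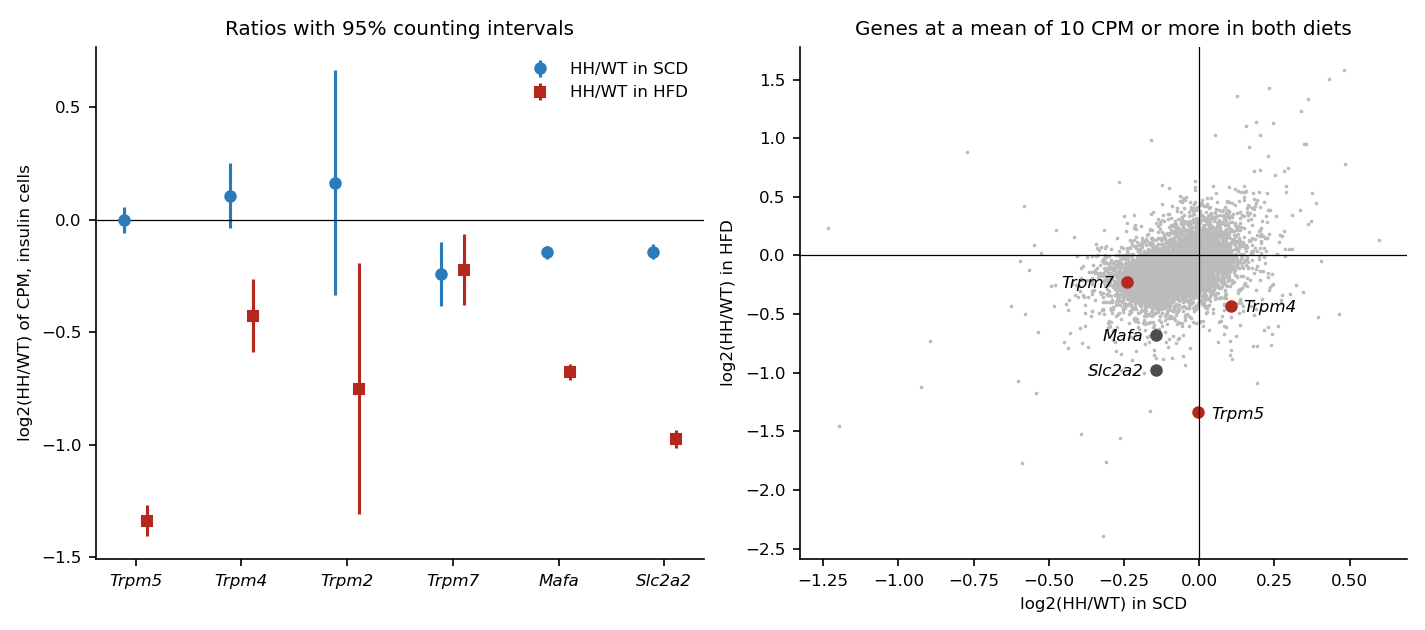
Left, log2 ratio of HH to WT in insulin cells for the 4 channels, Mafa and Slc2a2 on each diet, with 95% counting intervals. Right, the HFD ratio against the SCD ratio for all genes at a mean of 10 CPM or more in both diets (grey points), with 3 channels in red and Mafa and Slc2a2 in dark grey. Trpm5 lies at -0.00 on the SCD axis and -1.34 on the HFD axis, and Trpm7 lies within the cloud of genes.

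In HH HFD more insulin cells were without a Trpm5 UMI, and the cells that had one held fewer. At counts this low a lower mean level brings both, so these values restate the level. They do not separate fewer cells with Trpm5 from less Trpm5 per cell. To compare cells at equal depth each cell was thinned to 10000 UMIs, which left out 2 to 14 shallower insulin cells per library, and values are means over 100 draws. At this depth a Trpm5 UMI was found in 54.2% of insulin cells in WT SCD (52.0% to 56.4%) and 54.5% in HH SCD (52.3% to 56.8%), beside 62.2% in WT HFD (59.3% to 65.0%) and 32.7% in HH HFD (31.0% to 34.5%). HH minus WT was 0.344 percentage points on SCD (-2.79 to 3.46) and -29.5 percentage points on HFD (-32.8 to -26.0). With cells thinned to 3000 UMIs instead, HH minus WT on HFD was -15.2 percentage points (-18.1 to -12.2). In glucagon cells thinned to 10000 UMIs, the background share was 0.436% to 1.13%. Without thinning the shares of insulin cells with a UMI were 80.3%, 80.9%, 87.6% and 52.6% at median depths of 26398, 26207, 29867 and 24190 UMIs. Among thinned cells with a Trpm5 UMI the mean was 1.68 UMIs in WT SCD and 1.66 in HH SCD, against 1.85 in WT HFD and 1.49 in HH HFD.

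The counts per cell behind these shares are given as a description. Insulin cells with 2 Trpm5 UMIs made up 14.7% in WT SCD and 14.9% in HH SCD, with 17.8% in WT HFD and 7.37% in HH HFD, and cells with 5 or more made up 0.952%, 0.953%, 1.89% and 0.303%. The variance of the UMI count over cells was 1.32 times its mean in WT SCD and 1.30 times in HH SCD, compared with 1.35 times in WT HFD and 1.45 times in HH HFD. A count with the same expected value in every cell would give a ratio of 1, so the level varied among the cells of each library, and the ratio was highest in HH HFD.

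**Figure D3:**
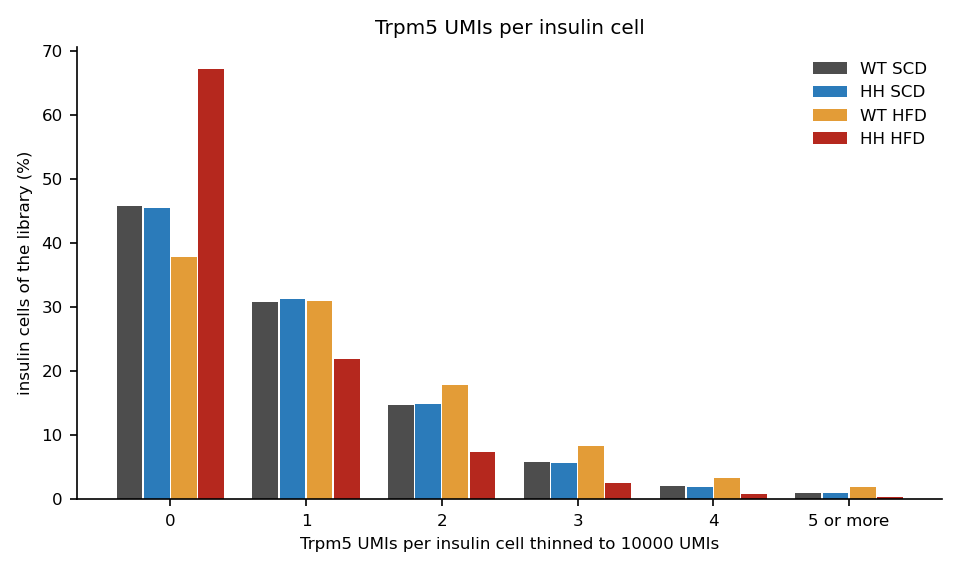
Share of insulin cells (%) by the number of Trpm5 UMIs per cell, after thinning each cell to 10000 UMIs, for the 4 libraries. Cells with no Trpm5 UMI make up 45.8% in WT SCD and 45.5% in HH SCD, beside 37.8% in WT HFD and 67.3% in HH HFD, and HH HFD has the lowest share at each count from 1 upward.

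Cells with more Mafa UMIs carried more Trpm5 in all 4 libraries when thinned to 10000 UMIs, and the fold along Mafa was largest in HH HFD. In WT SCD insulin cells with 0, 1 to 2, 3 to 5 and 6 or more Mafa UMIs, Trpm5 stood at 62.4, 88.8, 95.1 and 98.6 CPM. The HH SCD cells gave 63.8, 89.4, 93.8 and 101 CPM, within the counting intervals of WT SCD in each bin. Both SCD libraries were thus nearly level above 2 Mafa UMIs and lower in the cells with 0 Mafa UMIs. In WT HFD the levels were 79.4, 108, 127 and 136 CPM, and in HH HFD they were 26.3, 44.6, 67.2 and 89.0 CPM. From the lowest to the highest bin Trpm5 was 1.58-fold higher in WT SCD and 1.58-fold in HH SCD, against 1.71-fold in WT HFD and 3.38-fold in HH HFD. On the log2 scale this was 1.76 (1.48 to 2.03) in HH HFD and 0.77 (0.46 to 1.09) in WT HFD, and these intervals did not overlap. At 3000 UMIs per cell, from 0 to 3 or more Mafa UMIs, it was 1.19 (0.64 to 1.69) in HH HFD and 0.41 (-0.12 to 0.90) in WT HFD, with intervals that overlapped, and those of the 3 libraries other than HH HFD included 0.

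The HFD log2 ratio of HH to WT was lowest in thinned cells with no Mafa UMI and was still below 0 in those with the most. Such bins are counts at this depth and not Mafa levels, since without thinning a Mafa UMI was found in 95.3% of WT HFD and 87.4% of HH HFD insulin cells. The log2 ratio of HH to WT on HFD was -1.59 (-1.91 to -1.27) with 0 Mafa UMIs, -1.28 (-1.47 to -1.09) with 1 to 2, -0.92 (-1.11 to -0.73) with 3 to 5 and -0.61 (-0.88 to -0.35) with 6 or more. On SCD the same 4 ratios lay between -0.02 and 0.03. The make-up of the libraries also differed, because cells with 0 Mafa UMIs at this depth were 10.7% of insulin cells in WT SCD and 11.1% in HH SCD, with 14.7% in WT HFD and 28.9% in HH HFD, and cells with 6 or more were 8.89% in HH HFD against 16.5% in WT HFD. The Mafa level of the cells in the lowest and in the highest bin may therefore differ between the libraries.

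Slc2a2 gave smaller folds, and they were less distinct between the libraries. From 0 to 6 or more Slc2a2 UMIs, Trpm5 went from 71.7 to 97.7 CPM in WT SCD and from 73.0 to 101 in HH SCD, and from 83.4 to 132 in WT HFD and from 33.8 to 84.5 in HH HFD, which are 1.36-fold, 1.38-fold, 1.59-fold and 2.50-fold. On the log2 scale the intervals of HH HFD, 0.94 to 1.68, and WT HFD, 0.32 to 1.01, overlapped, and at 3000 UMIs, from 0 to 3 or more Slc2a2 UMIs, those of all 4 libraries included 0, with 0.81 (-0.07 to 1.54) in HH HFD. The HFD log2 ratio of HH to WT was -1.30 (-1.63 to -0.98) in cells with no Slc2a2 UMI and -0.65 (-1.05 to -0.26) in cells with 6 or more. Cells with neither a Mafa nor a Slc2a2 UMI held the lowest Trpm5 levels of each library, 32.6 CPM in WT SCD and 36.3 in HH SCD, compared with 38.95 in WT HFD and 18.8 in HH HFD. They were 2.50%, 3.06%, 3.34% and 12.4% of insulin cells. Cells with both genes stood at 95.1, 95.1, 123 and 62.5 CPM, so the low HH HFD value was also present in cells with UMIs of both genes. From neither to both, Trpm5 was 2.92-fold higher in WT SCD and 2.62-fold in HH SCD, beside 3.17-fold in WT HFD and 3.32-fold in HH HFD. The intervals of these 4 folds overlapped. At 3000 UMIs per cell the same folds were 1.31 in WT SCD and 1.25 in HH SCD, beside 1.41 in WT HFD and 2.15 in HH HFD. On the log2 scale the HH HFD interval, 0.72 to 1.52, overlapped those of both WT libraries and not that of HH SCD, -0.04 to 0.69.

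**Figure D4:**
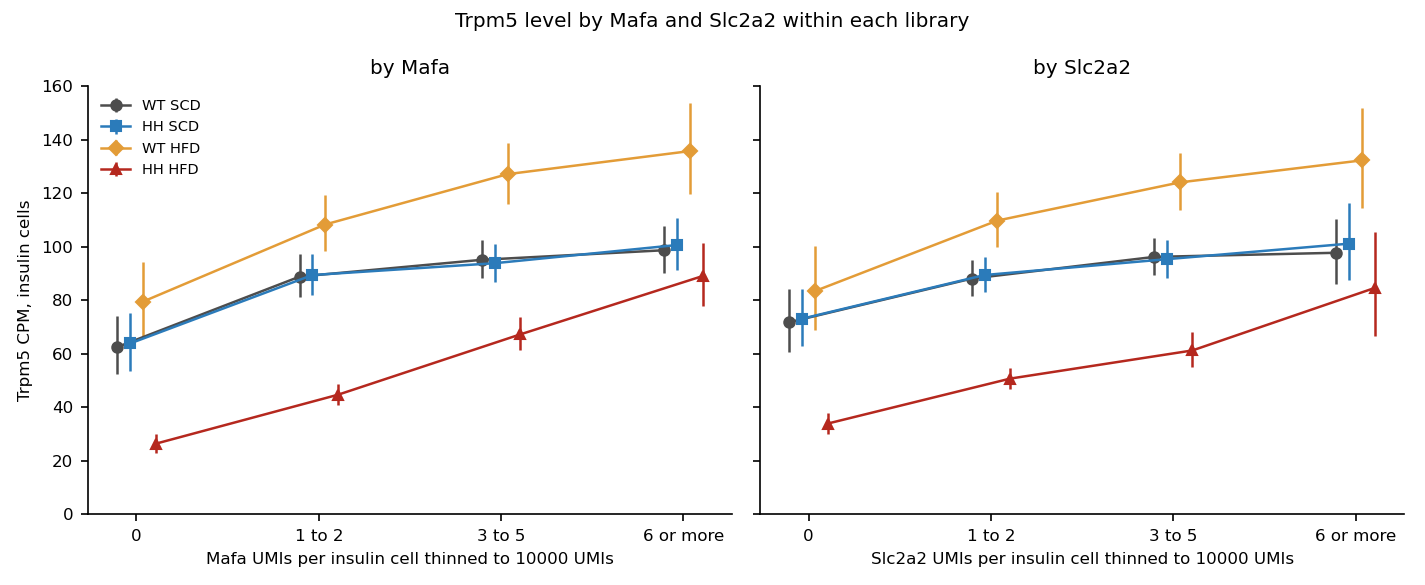
Trpm5 level (CPM) in insulin cells binned by their Mafa UMIs (left) or Slc2a2 UMIs (right), within each library and after thinning each cell to 10000 UMIs, with bars for 95% Poisson intervals. The SCD libraries coincide, WT HFD lies above them, and HH HFD lies below and climbs the most, from 26.3 to 89.0 CPM along Mafa.

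Correlations across cells were small at this depth and are given as a description, since the cells of a library share its preparation and most cells hold 0 or 1 Trpm5 UMI. Pearson's r between the UMIs of Trpm5 and Mafa was 0.07 in WT SCD (2005 cells) and 0.08 in HH SCD (1978 cells), beside 0.12 in WT HFD (1129 cells) and 0.23 in HH HFD (2825 cells), with Spearman's rho of 0.08, 0.08, 0.14 and 0.25. For Slc2a2, r was 0.06, 0.06, 0.10 and 0.14 in the same order. Between Trpm5 and Trpm4 it was between -0.01 and 0.01, and between Trpm5 and Trpm7 between -0.03 and 0.01.

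The same insulin cells were divided by Aldh1a3, a retinaldehyde dehydrogenase known from dedifferentiated β cells, Gc, the vitamin D-binding protein, and Serpina7, which encodes thyroxine-binding globulin. Cells with a UMI of any of the 3 made up 25.1% of insulin cells in WT SCD and 25.9% in HH SCD, against 41.0% in WT HFD and 63.9% in HH HFD. Trpm5 in cells with and without such a UMI was 87.4 and 92.0 CPM in WT SCD, 85.9 and 92.2 in HH SCD and 111 and 117 in WT HFD. In HH HFD it was 38.9 CPM (36.1 to 41.9) with and 66.0 CPM (61.1 to 71.2) without, a log2 ratio of -0.76 (-0.92 to -0.61), where the other 3 libraries lay between -0.10 and -0.07 with intervals that included 0. The HFD log2 ratio of HH to WT was -0.83 (-0.98 to -0.68) in cells without any of the 3 and -1.52 (-1.68 to -1.35) in cells with one.

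Depth and mitochondrial share moved with Trpm5 within HH HFD. Over 5 bins from 3000 to 14999 up to 30000 to 50000 total UMIs, Trpm5 stood at 63.3, 61.9, 53.8, 39.6 and 34.8 CPM in HH HFD, at 111, 131, 114, 109 and 114 CPM in WT HFD, at 74.1, 81.2, 87.8, 94.8 and 95.5 CPM in WT SCD and at 60.7, 81.5, 91.5, 94.8 and 94.0 CPM in HH SCD. The deeper HH HFD cells thus had less Trpm5 per UMI, opposite to the SCD libraries. The HFD log2 ratio of HH to WT was -0.81 (-1.33 to -0.25) in the shallowest bin, which held 26 WT cells, and -1.72 (-1.83 to -1.61) in the deepest. By mitochondrial share, HH HFD went from 40.2 CPM in cells under 3% to 65.2 CPM in cells of 6% to 10%, while WT HFD lay between 106 and 120 CPM in every bin. The HFD ratio was -1.53 (-1.70 to -1.36) in the first and -0.86 (-1.02 to -0.71) in the last of these bins. With insulin cells matched between genotypes on total UMIs it was -1.56, and matched on mitochondrial share it was -1.18. Each match left the other measure apart. Matched on total UMIs, the median mitochondrial share was 3.73% in HH HFD and 4.90% in WT HFD. Matched on mitochondrial share, the median depth was 21946 UMIs in HH HFD and 30024 in WT HFD. The dissociation-responsive genes Fos, Hspa1a and Dnajb1 were also lowest in HH HFD, with Hspa1a at 56.6 CPM against 176 to 219 CPM in the others, Dnajb1 at 62.3 CPM against 180 to 216 CPM, and Fos at 468 CPM against 674 to 1040 CPM. Their part in the Trpm5 values was not tested.

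**Figure D5:**
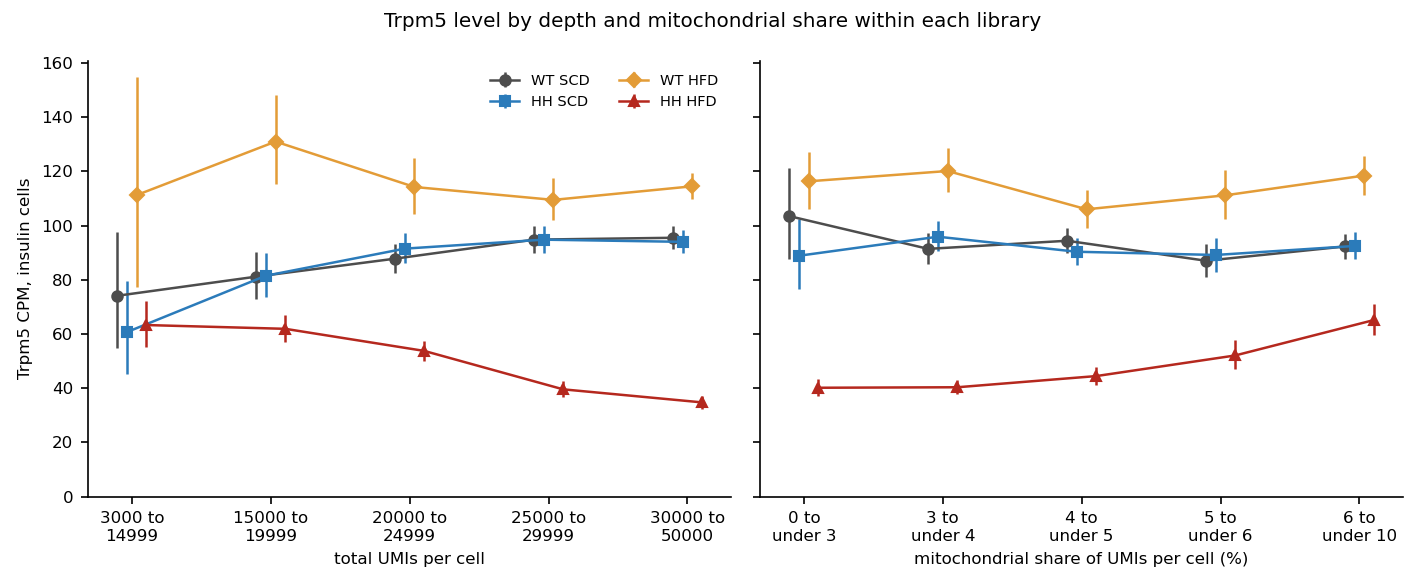
Trpm5 level (CPM) in insulin cells by total UMIs per cell (left) and by mitochondrial share of UMIs (right), for the 4 libraries, with bars for 95% Poisson intervals. In HH HFD the level goes from 63.3 CPM in the shallowest to 34.8 CPM in the deepest cells and from 40.2 to 65.2 CPM along the mitochondrial share, while WT HFD stays between 106 and 131 CPM.

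Trpm4, the closest relative of Trpm5 in gating, was lower in HH on HFD by a smaller amount. Its insulin cell level was 14.1 CPM (13.1 to 15.1) in WT SCD and 15.2 (14.1 to 16.3) in HH SCD, with 15.3 (14.0 to 16.7) in WT HFD and 11.4 (10.6 to 12.2) in HH HFD, so the interval of HH HFD lay below the other 3, which overlapped. As a log2 ratio, HH to WT was 0.11 on SCD (-0.04 to 0.25) and -0.43 on HFD (-0.59 to -0.27), and 298 of the 5881 genes tested on HFD stood lower. Subtraction of a background profile moved these ratios to 0.66 and -0.72, and took away 37.9% of the Trpm4 UMIs in WT SCD and 7.28% in HH SCD, with 13.9% in WT HFD and 29.4% in HH HFD. The HFD ratio minus the SCD ratio was -0.53 (-0.75 to -0.32). Along Mafa in HH HFD it was 10.3 CPM with 0 UMIs and 13.7 CPM with 6 or more, a log2 ratio of 0.41 whose interval, -0.24 to 0.97, included 0, and along Slc2a2 it was 0.65 (-0.24 to 1.45). No relation was detectable at this depth. A Trpm4 UMI was found in 13.3%, 14.1%, 14.4% and 11.1% of insulin cells at 10000 UMIs, and HH minus WT on HFD was -3.31 percentage points (-5.74 to -0.94). In somatostatin cells the HFD log2 ratio was -0.65 with an interval that included 0 (-1.41 to 0.08, from 27 and 42 UMIs), so no difference was detectable there at this depth. In glucagon cells HFD libraries were lower than SCD libraries of the same genotype by a log2 ratio of -0.63 in both WT and HH, again with intervals that included 0.

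Trpm2 gave 51 to 73 UMIs per library in insulin cells, so its ratios are broad. The level was 1.24 CPM (0.957 to 1.57) in WT SCD and 1.38 (1.08 to 1.74) in HH SCD, compared with 1.5 (1.12 to 1.97) in WT HFD and 0.891 (0.684 to 1.14) in HH HFD. HH to WT gave a log2 ratio of 0.16 on SCD (-0.33 to 0.66) and -0.75 on HFD (-1.31 to -0.19). The HFD value was -0.12 with cells matched on mitochondrial share. It was -1.29 when the exclusion by markers of other cell types and the 5% hormone minimum were both dropped. That alternative lets in cells low in hormones. The SCD value was 0.80 when a background profile was subtracted. These UMIs can also come from other cells: a subtraction of the profile of other cell types took away between 59.8% and 245% of the Trpm2 UMIs of insulin cells, more than were counted in both HFD libraries. By construction this also takes away what those cells make themselves, so the share of background in the insulin cell signal was not measured. In cells low in hormones Trpm2 stood at 12.8 CPM in WT HFD from 38 UMIs and at 3.37, 3.16 and 3.55 CPM in WT SCD, HH SCD and HH HFD from 3 to 9 UMIs. The WT HFD library also held the most macrophage-like cells, 49 against 8 to 22, and 23 of its 38 UMIs came from them.

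Trpm7 was slightly lower in HH on both diets on the CPM scale, where the median tested gene was also lower, by a log2 ratio of -0.08 on SCD and -0.13 on HFD. Of the genes tested, 467 of 6061 on SCD and 1697 of 5881 on HFD stood further below WT. Its insulin cell level was 16.3 CPM (15.2 to 17.4) in WT SCD and 13.8 (12.8 to 14.8) in HH SCD, beside 15.3 (14.0 to 16.6) in WT HFD and 13.1 (12.2 to 13.9) in HH HFD. The log2 ratio of HH to WT was -0.24 on SCD (-0.38 to -0.10) and -0.22 on HFD (-0.38 to -0.07), and the HFD ratio minus the SCD ratio was 0.02 (-0.19 to 0.23). With median-of-ratios scaling the ratios were -0.17 and -0.12, and no lower level relative to other genes is read from the HFD value. With a background profile subtracted, which took away most Trpm7 UMIs of insulin cells, the SCD ratio turned to 0.37. No genotype difference was detectable in the other hormone classes, where the intervals of the 6 ratios of HH to WT included 0. In glucagon cells Trpm7 differed by diet, from 28.8 CPM in WT SCD to 16.9 CPM in WT HFD and from 34.1 CPM in HH SCD to 21.4 CPM in HH HFD. The log2 ratios of HFD to SCD there were -0.77 in WT (-1.20 to -0.35) and -0.67 in HH (-1.04 to -0.30), while in insulin cells they were -0.09 (-0.25 to 0.07) and -0.08 (-0.22 to 0.07).

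Lists of genes around these channels held few members past 1.5-fold, as did all genes tested, of which 1.65% were lower and 0.765% higher on HFD. Of 22 further TRP channel genes 21 were listed in the matrices and 3 reached 10 CPM in insulin cells, with a median log2 ratio of -0.12 on SCD and -0.27 on HFD. Trpc1, a channel of the canonical branch, met the rule for lower on HFD, at 33.9 CPM in WT SCD and 27.8 in HH SCD, against 36.3 in WT HFD and 22.1 in HH HFD (log2 ratio -0.29 on SCD and -0.72 on HFD, -0.83 to -0.61). Of the other two, Trpm3 stood at 12.4, 14.6, 10.4 and 13.6 CPM in the same order, higher in HH on HFD by a log2 ratio of 0.38 (0.21 to 0.56), and Pkd2 had a log2 ratio of -0.27 on HFD. Of 20 genes for the phospholipase C and calcium store steps that open Trpm5, 11 were tested on HFD and 0 met the rule in either direction, with a median of -0.08 against -0.13 over all tested genes, a count of 0 that so few genes would also give at the share of all genes. The inositol trisphosphate receptor genes Itpr1, Itpr2 and Itpr3, the release channels of the calcium store, fell under the minimum of 10 CPM on HFD. They stood at 10.5, 9.15 and 8.59 CPM in WT HFD and at 8.27, 5.99 and 5.75 CPM in HH HFD, with log2 ratios of -0.35 (-0.54 to -0.16), -0.61 (-0.82 to -0.39) and -0.58 (-0.80 to -0.36). The sweet and umami receptor genes Tas1r1, Tas1r2 and Tas1r3, which use Trpm5 in taste cells, were at or under 0.353 CPM throughout. Of 20 other channels that set the β cell membrane potential, 12 were tested on HFD. None of these was lower by the rule. Scn3a, a voltage-gated sodium channel, stood at 7.54, 8.78, 7.62 and 12.6 CPM (log2 ratio 0.73 on HFD, 0.53 to 0.93), and since it reached the minimum only through HH HFD, its place among the higher genes is fixed by that minimum. The KATP channel genes Kcnj11 and Abcc8 were among those within 1.5-fold. On SCD 3 TRP genes, 12 calcium store genes and 10 membrane channels were tested, and 0 met the rule. Tuft cell markers did not accompany Trpm5: in insulin cells Gnat3 and Sh2d6 had 0 UMIs in all 4 libraries, Pou2f3 had at most 1 UMI and Avil 4 to 12 UMIs, and Dclk1 stood between 1.06 and 4.02 CPM.

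The genes most like Trpm5 over the 16 pairs of library and hormone class were β cell genes. By Pearson's r over log2(CPM + 1) among 4685 genes these were Slc2a2 (0.991), Ins1 (0.988), Ins2 (0.987), Prss53 (0.984) and Cox6a2 (0.982), a description of 16 sums of which 4 come from insulin cells. Ins1 and Ins2 also sorted the cells into classes, so their high r with a gene found mainly in insulin cells is fixed by that sorting. By the distance over 3 log2 ratios in insulin cells (HH to WT on each diet, and HFD to SCD in WT) among 3577 genes, the nearest were Rasd1 at 0.397, Slc2a2 at 0.480, Fam151a at 0.499, Vdr at 0.564 and Pfkfb2 at 0.602 log2 units. Rasd1, a small G protein induced by glucocorticoids, stood at 93.9 CPM in WT SCD and 107 in HH SCD, with 98.8 in WT HFD and 46.5 in HH HFD. Vdr, the vitamin D receptor, stood at 102, 85.4, 123 and 68.9 CPM in the same order, and Fam151a at 74.6, 80.2, 93.5 and 51.9 CPM. Pfkfb2, an enzyme that tunes glycolysis, stood at 22.8, 22.3, 24.0 and 13.9 CPM. The 5 were chosen by these ratios, so nothing is read from their direction. Their HFD log2 ratios of HH to WT were between -1.09 and -0.79.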

How the data were processed

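Droplet 3′ single-cell RNA libraries of islets were made with a v3.1 kit. Per the labels and the published methods, the authors aligned reads to GRCm38 with Cell Ranger (6.0 in the submitters' notes, 6.0.2 in the file headers) and deposited filtered matrices of raw UMI counts per gene and barcode. The annotation release is not given in the sources used here. Reads were not strand-checked here, so reads of overlapping genes on opposite strands were taken as the authors counted them. The ambient RNA and doublet steps that the authors describe came after these files.

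Barcodes with 3000 to 50000 UMIs, 2000 to 5000 genes and under 10% mitochondrial UMIs were kept, all 3 required. Doublets were scored per library with Scrublet in scanpy, and the expected number (0.8% per 1000 cells) with the highest scores was removed, since its automatic threshold marked 7 cells in HH HFD. A cell entered a hormone class when hormone UMIs (Ins1 with Ins2, Gcg, Sst, Ppy) were at least 5% of its UMIs, 1 hormone held at least 80% of them, and it did not carry at least 3 markers and 10 UMIs of another cell type. Cells under 5% with such markers were called endothelial-like and so on. The 5% and marker limits were set after the data were seen. UMIs were summed per class and library and given as CPM.

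No test was run, with 1 library per group. A gene was counted as lower or higher at a 1.5-fold difference with Poisson intervals that did not overlap, among genes at a mean of 10 CPM or more in insulin cells. For shares and splits each cell was thinned to 3000 or 10000 UMIs, averaged over 100 draws (seed 1). The calculations were tested on simulated data. Named genes were the 4 members, Mafa, Slc2a2, Gc, Aldh1a3 and Serpina7, list genes past 1.5-fold, and the 5 genes most like Trpm5 by each of 2 measures at a mean of 20 CPM or more. Trpm3, Pkd2, Itpr1, Itpr2, Itpr3, Kcnj11, Abcc8, the receptor genes, Tssc4 and the tuft and dissociation-responsive genes were added after their values were seen. The members and lists were chosen with earlier results of these data known. Python 3.11.15, numpy 2.4.6, scipy 1.17.1, pandas 2.3.3, scanpy 1.11.5, anndata 0.12.19 and matplotlib 3.10.9 were used. Alternatives covered cell filters, doublets, class limits, background, scaling, cell weights, depth, matching and the expression minimum.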

Additional observations from a re-analysis of the deposited data

Results flagged for a closer look

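The diet ratio of Trpm5 in insulin cells pointed in opposite directions in the 2 genotypes. The log2 ratio of HFD to SCD was 0.31 in WT and -1.02 in HH. Each genotype and diet is 1 library, so the difference between the 2 ratios was not tested, and diet, age and library cannot be told apart.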

How the results depend on the processing

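Of 149 alternative values, 133 stayed within the counting interval of their reference value, 15 moved beyond it and 1 reversed. For the share of cells with a Trpm5 UMI and the splits by a Mafa UMI, the reference was the value at 3000 UMIs. The values at 10000 UMIs counted there as alternatives, although the results above give them first. For the shares of genes past 1.5-fold, a value within 1.5-fold of the reference counted as staying. The HFD log2 ratio of Trpm5, -1.34, lay between -1.56 and -1.18 under all 16 alternatives. Of these, 9 stayed within its counting interval and 7 moved beyond it. It was -1.27 with loose cell filters, -1.23 with median-of-ratios scaling, -1.24 as a mean of CPM per cell and when cells were thinned to 3000 or to 10000 UMIs, -1.56 with cells matched on total UMIs and -1.18 with cells matched on the mitochondrial share. The SCD ratio of Trpm5 was 0.065 with median-of-ratios scaling. Subtraction of a background profile took under 1% of Trpm5 UMIs, but between 86.1% and 96.2% of the Trpm7 UMIs of insulin cells, since by construction it also removes what the cells used as the profile make themselves. It turned the SCD ratio of Trpm7 from -0.24 to 0.37, moved the SCD ratios of Trpm4 to 0.66 and of Trpm2 to 0.80 and the HFD ratio of Trpm4 to -0.72, and gave no value for Trpm2 on HFD. The HFD ratio of Trpm2, -0.75, was -0.12 with cells matched on the mitochondrial share. It was -1.29 with the exclusion by markers of other cell types and the 5% hormone minimum both dropped, which lets in cells low in hormones. The cause of these shifts was not tested. The HFD difference in the share of insulin cells with a Trpm5 UMI was -15.2 percentage points at 3000 UMIs, -29.5 at 10000 and -35.0 without thinning, as more UMIs bring more cells past 1 count. In cells with a Mafa UMI at 3000 UMIs the HFD ratio of Trpm5 was -0.96 and in cells without it -1.43, and at 10000 UMIs these were -1.07 and -1.59. At a minimum of 50 CPM, 0.357% of genes were lower on SCD and 2.31% on HFD. The automatic doublet threshold and a hormone minimum of 10% were added after the data were seen, and moved no value beyond its counting interval. Leaving out a replicate would leave no library in a group and was not run. No paired analysis was possible because each group is 1 library and the labels give no replicate numbers. Depth limits Trpm2 in hormone cells, and all 4 channels in cell types with few cells.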
